A study of Homo sapiens with 8 samples.

Results

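GAS5, ZFAS1 and 8 genes of the SNHG series (SNHG1, SNHG5, SNHG6, SNHG7, SNHG8, SNHG12, SNHG15 and SNHG16) were followed through a pull-down experiment in human acute myeloid leukaemia cells. These 10 long non-coding genes carry small nucleolar RNAs (snoRNAs) and were chosen by name, out of 63140 genes in the count table, from a list already described as rich in terminal oligopyrimidine starts. Earlier results of these data were known when they were chosen. The experiment used chromatin isolation by RNA purification (ChIRP), in which fixed and sonicated lysate is hybridised to biotinylated probes and the RNA held by the captured probes is sequenced. The target of the probes is not given in the sources used here and no input library was analysed, so every level below is an amount of RNA in a pull-down.

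There were 8 libraries in 4 groups of 2, all taken on day 3 after editing. AAVS1 KO cells, with genotype WT in the labels, had received Cas9 ribonucleoprotein with a guide to the AAVS1 control locus. HOTSCRAMBL KO cells had received Cas9 ribonucleoprotein directed at HOTSCRAMBL, a long non-coding RNA gene. AAVS1 CBE cells, also labelled WT, and HOTSCRAMBL CBE cells had received a cytosine base editor, an enzyme that rewrites C as T in uncut DNA, with guides to the same loci. In each group replicate 1 was labelled MOLM13 and replicate 2 was labelled OCI-AML4, both established leukaemia lines. A group therefore held 1 library of each label. Libraries with the same line label were hardly closer to each other than those with different labels: the median correlation of log2 CPM was 0.878 for the same label in different groups, 0.875 for different labels in different groups and 0.901 for the pair of labels within a group. Only 119 of 24057 genes passed the test between the labels, so the lines are named here as labels. Nothing in the labels says that cells were cloned after editing, and the level of HOTSCRAMBL was not analysed here.

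A snoRNA host gene is transcribed as a long precursor whose introns contain snoRNAs. After splicing, the introns are trimmed to mature snoRNAs, which guide chemical modification or cleavage of other RNAs, mainly ribosomal RNA: box C/D snoRNAs guide ribose methylation and box H/ACA snoRNAs guide pseudouridylation. The spliced host RNA is a separate product, and for GAS5 it is known to be degraded on ribosomes by nonsense-mediated decay. Many host genes, coding and non-coding, begin with a 5′ terminal oligopyrimidine (TOP) tract, a C at the first base of the RNA followed by a run of C and U. In mRNAs this tract ties translation to mTOR signalling through proteins such as LARP1.

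The annotated starts of these hosts are shown first because the TOP tract belongs to the description by which the list was chosen. Each line gives the first 30 bases of a transcript in GENCODE v29 (GRCh38), 5′ to 3′ on the strand of the gene, with T for U. Capitals mark an uninterrupted run of C and T that begins with a C at the first base. Where several transcripts had a tract of at least 5 bases, the one nearest to the RefSeq start of the gene was taken.
GAS5 (chr1:173867960-173867989, minus strand): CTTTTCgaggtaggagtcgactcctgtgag
SNHG16 (chr17:76557769-76557798, plus strand): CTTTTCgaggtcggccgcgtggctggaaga
SNHG8 (chr4:118278758-118278787, plus strand): CTTTCacattcgggaagcgtcgggattagg
SNHG5 (chr6:85678704-85678733, minus strand): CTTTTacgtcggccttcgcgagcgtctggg
ZFAS1 (chr20:49278642-49278671, plus strand): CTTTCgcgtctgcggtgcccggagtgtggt
SNHG12 (chr1:28581844-28581873, minus strand): CCTTTCTCCCCgccgcattcccggtgtcga
SNHG7 (chr9:136728155-136728184, minus strand): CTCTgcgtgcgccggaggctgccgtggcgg
SNHG15 (chr7:44986645-44986674, minus strand): gtgcgcggcgcagcgcgcggcgtcagtctt

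A C followed by at least 4 bases that were each C or T opened 23 of the 136 annotated transcripts of these genes (16.9%). The same start, searched on the transcribed strand alone, opened 2.41% of all 206694 transcripts and 2.49% of the 29566 transcripts of long non-coding genes. At least 1 such transcript was found for 8 of the 10 genes, against 6.58% of all genes and 3.98% of long non-coding genes. Since the list was described by such starts, these shares describe the choice and support nothing further. The exceptions were SNHG7, whose tract had 4 bases, and SNHG15, whose start shown has none. GAS5 and SNHG16 shared their first 11 bases. The SNHG12 tract ran for 11 bases, and those of SNHG5, ZFAS1 and SNHG8 for 5 each. The genes have many annotated transcripts, 29 for GAS5 and 25 for SNHG1, and a gene with more transcripts has more chances to match. At the single start that RefSeq gives each gene, a tract of this kind was present for SNHG12, SNHG5 and ZFAS1, which is 3 of the 8 with a RefSeq promoter sequence (37.5%), against 4.07% of 35116 RefSeq promoters. The tracts of SNHG8 and SNHG16 began 4 and 5 bases from the RefSeq start. That of GAS5 began 1056 bases from it, and the only matching transcript of SNHG1 began 406 bases from it. A match describes letters at an annotated start, and transcription starts were not measured.

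Both snoRNAs that had enough reads to be tested lie in introns of these hosts, SNORD99 in SNHG12 and SNORD12C in ZFAS1. Their sequences are given because their counts are set beside those of the hosts further on. Capitals mark the letters TGATGA of a C box and the last CTGA, the letters of a D box, the paired motifs that bind the core proteins of a box C/D particle.
SNORD99 (chr1:28578749-28578822, minus strand): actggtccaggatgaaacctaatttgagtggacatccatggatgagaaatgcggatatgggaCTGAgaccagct
SNORD12C (chr20:49278940-49279028, plus strand): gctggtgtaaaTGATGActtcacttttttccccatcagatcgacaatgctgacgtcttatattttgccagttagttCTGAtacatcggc

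SNORD12C has 89 bases, with the C box letters from base 12 and 9 bases after the D box. SNORD99 has 74 bases, with the D box letters followed by 8 bases and no exact TGATGA. Among 288 annotated transcripts named SNORD, searched on their own strand, 77.4% held TGATGA, 98.3% held CTGA and 76.4% held both in that order.

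Library totals ran from 20548300 to 37970163 counts, a ratio of 1.85, and 24057 genes passed the filter on low counts, all 10 host genes among them. The 10 genes together took between 0.0504% and 0.0710% of the counts of a library, so their joint share rests on 12386 to 26955 counts each. PPP1R12C, the gene whose intron holds the AAVS1 locus, had a level of 365 to 387 CPM (counts scaled to library size after TMM normalisation) in the 4 AAVS1 libraries and 135 to 242 in the 4 HOTSCRAMBL libraries. The mitochondrial share of counts was 6.77% to 7.23% in the AAVS1 libraries and 10.2% to 11.9% in the HOTSCRAMBL libraries, so it moves with every HOTSCRAMBL comparison below, and its part in those results was not tested. Myeloid markers were all detected, 10 of 10, with a summed level of 1150 to 1650 CPM per library and group means of 1590 CPM in HOTSCRAMBL KO, 1220 in its AAVS1 control, 1180 in HOTSCRAMBL CBE and 1200 in its control. Summed T-cell markers reached 11.7 CPM with CD2 and CD3E at 0, B-cell markers 11.0, erythroid markers 1.58 with HBB at 0, epithelial markers 5.25 with KRT19 at 0 and fibroblast markers 1.06 with COL3A1 at 0.

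What a count of a host gene contains differed between the genes. Per the file headers, a read that touched the exons of several genes was not counted, and strand was ignored. The annotation of the count table holds 25 snoRNA entries inside 9 of the hosts. Of these, 21 lie wholly within an exon block of the host, because some annotated transcripts retain the introns, and all 21 had 0 counts in every library. The other 4 reach outside the exon blocks and were the only ones with counts: SNORD99, SNORD12C, SNORD1B in SNHG16 and SNORD12B in ZFAS1. In SNHG1, SNHG8 and SNHG15 the merged exons form 1 block over the whole gene, of 3976, 6614 and 3943 bases, so spliced host RNA and unspliced precursor cannot be told apart there.

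GAS5 was the one host with 0 snoRNA entries of the table inside it. RefSeq places 11 snoRNAs within GAS5, 801 bases or 16.2% of its exon length, and all 11 lie in GAS5 exon blocks of the table. Reads from them were therefore assigned to GAS5, whereas reads over the 7 entries in SNHG1 were assigned to no gene. Mature snoRNA, retained introns and spliced GAS5 RNA were not separated here.

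**Figure D1:**
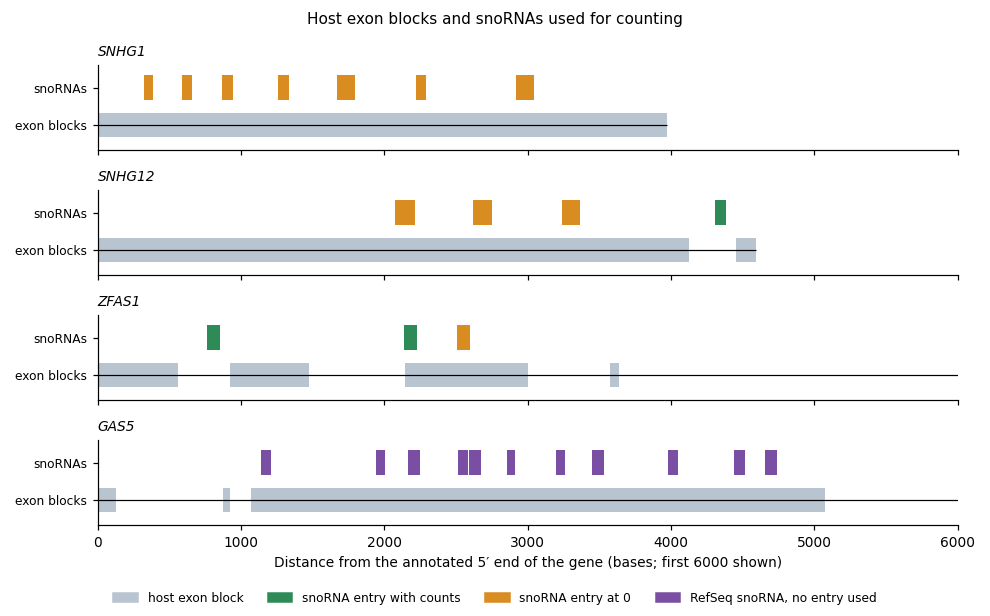
Exon blocks of 4 hosts in the annotation of the count table (grey bars) and the snoRNAs inside them (coloured bars above), by distance in bases from the annotated 5′ end of the gene. The 7 snoRNA entries of SNHG1 sit over its single exon block and had no counts, SNORD99 and SNORD12C sit in gaps between blocks and were counted, and the 11 RefSeq snoRNAs of GAS5 sit over its blocks without an entry of their own.

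Levels of the hosts can be compared with each other only per length, and their order depends on which length is used. Per kilobase of all exon bases, over the 8 libraries, GAS5 stood at 27.0 CPM, SNHG6 at 19.9, SNHG1 at 17.4, SNHG12 at 16.8 and SNHG15 at 15.7. SNHG8 had 11.0 and SNHG7 9.53, and below them came SNHG16 (5.86), ZFAS1 (4.08) and SNHG5 (4.02). Stretches shared with other genes received no reads, and in SNHG6 they left 950 of 2527 exon bases. Per kilobase of exon that no other gene of the table shares, SNHG6 came first at 53.1 CPM, ahead of GAS5 at 29.3, and it was first in each of the 4 groups. SNHG1 followed with 20.6, SNHG12 with 18.5, SNHG8 with 18.3, SNHG15 with 16.3 and SNHG7 with 14.8. SNHG16 (8.51), ZFAS1 (7.17) and SNHG5 (4.66) were the lowest on this scale too. On the unshared scale SNHG12 (21.2) stood above GAS5 (18.3) in AAVS1 KO libraries, and GAS5 (40.3) above SNHG12 (20.2) in HOTSCRAMBL KO libraries.

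Cas9 targeting of HOTSCRAMBL, compared with Cas9 targeting of AAVS1, came with more GAS5, SNHG6 and SNHG8 RNA in the pull-down. GAS5 rose 2.2-fold, SNHG6 1.88-fold and SNHG8 1.55-fold. These 3 of the 10 hosts passed the test and none fell. In such bulk pull-down libraries, more cells with a host RNA, more of it per cell and a larger captured share of it cannot be told apart. Across all genes tested, 8.76% passed the same test in either direction and 4.51% rose, and among the 3903 genes in the hosts' range of mean level (33.8 to 133 CPM) 19% passed and 9.02% rose. The median change of the 10 hosts was 0.39 on the log2 scale, against -0.01 for all genes tested. Tests were edgeR quasi-likelihood tests with Benjamini-Hochberg adjustment over all genes tested, and a change was called at an adjusted p below 0.05. The standard error (SE) given with a change is its absolute log2 value divided by the square root of the test's F statistic.

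GAS5, named for its accumulation in growth-arrested cells and the host of a large set of box C/D snoRNAs, had 88.9 and 78.0 CPM in AAVS1 KO replicates 1 and 2 and 165 and 201 CPM in HOTSCRAMBL KO replicates 1 and 2. Both HOTSCRAMBL libraries stood far above both controls. The log2 fold change was 1.14 (SE 0.153, adjusted p = 7.26e-06). It stayed between 0.94 and 1.31, and past the threshold, under all 16 alternatives tried, including each library left out.

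SNHG6, a host of a box C/D snoRNA, had 35.9 and 35.9 CPM in AAVS1 KO and 68.5 and 66.3 CPM in HOTSCRAMBL KO. The groups did not overlap, and the libraries within a group lay close together. The log2 fold change was 0.91 (SE 0.219, adjusted p = 0.00676). The call was lost, at an adjusted p of up to 0.191, in the fit to the 4 KO libraries alone and without any 1 of them, where the change remained between 0.75 and 1.0 over all alternatives.

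SNHG8, the host of the box H/ACA snoRNA SNORA24, had 55.1 and 57.8 CPM in AAVS1 KO and 94.5 and 81.3 CPM in HOTSCRAMBL KO. Its groups did not overlap either. The log2 fold change was 0.64 (SE 0.187, adjusted p = 0.0316). This call was the least stable of the 3: it was lost without any 1 of the 8 libraries, without TMM scaling, without the term for the labelled line and in the fit to the 4 KO libraries, with values from 0.46 to 0.79 and an adjusted p of up to 0.357.

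SNHG16 did not pass the test with Cas9, though its groups were apart. It had 22.9 and 28.3 CPM in AAVS1 KO and 50.2 and 37.2 CPM in HOTSCRAMBL KO, a log2 fold change of 0.76 (SE 0.271, adjusted p = 0.0862). Under the DESeq2 Wald test its adjusted p was 0.00919. Counting hosts whose HOTSCRAMBL KO libraries both exceeded both AAVS1 KO libraries gives 6 of 10 (GAS5, ZFAS1, SNHG1, SNHG6, SNHG8 and SNHG16), where 21% of all genes tested were arranged that way. For no host were both below, an arrangement of 23.8% of all genes tested. These arrangements depend on TMM scaling. In counts divided by library totals alone, ZFAS1 overlapped, and SNHG1 and SNHG15 had both HOTSCRAMBL KO libraries below both controls. The share of all genes on that scale was not computed.

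**Figure D2:**
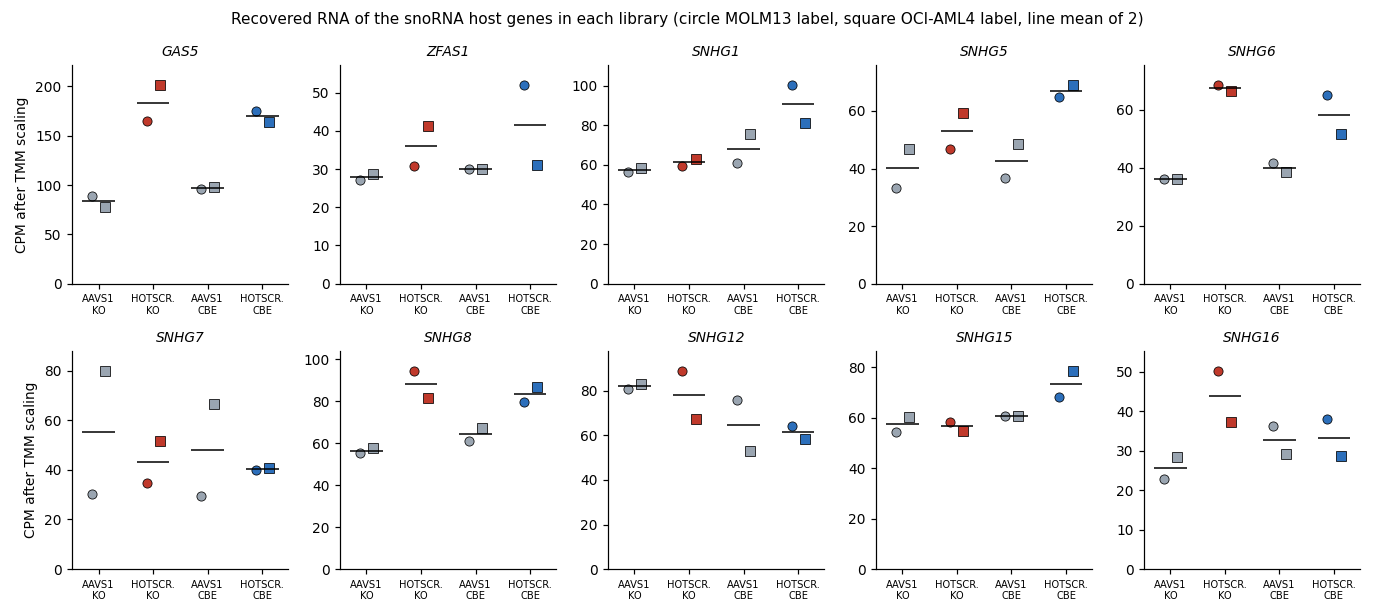
Level of each host gene in the 8 libraries, in CPM after TMM scaling on axes that start at 0. Circles are libraries labelled MOLM13, squares libraries labelled OCI-AML4, and the line is the mean of the 2 libraries of a group; GAS5 lies between 78.0 and 97.7 in the 4 AAVS1 libraries and between 164 and 201 in the 4 HOTSCRAMBL libraries.

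With the base editor, GAS5 and SNHG5 passed the test, 1.75-fold and 1.59-fold higher in HOTSCRAMBL CBE than in AAVS1 CBE. These 2 of 10 stand beside 8.83% of all genes tested that passed in either direction and 4.56% that rose, and beside 22.3% and 11.8% among genes in the hosts' range of level. The median change of the 10 hosts was 0.40 on the log2 scale, against -0.02 for all genes tested. In 7 of 10 hosts both HOTSCRAMBL CBE libraries exceeded both AAVS1 CBE libraries, an arrangement found in 22.7% of all genes tested. The other 3 were SNHG7, SNHG12 and SNHG16, whose groups overlapped, and no host had both HOTSCRAMBL CBE libraries below (23.7% of all genes tested). In counts divided by library totals alone, without TMM scaling, SNHG1 and ZFAS1 overlapped as well.

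GAS5 had 96.5 and 97.7 CPM in AAVS1 CBE and 175 and 164 CPM in HOTSCRAMBL CBE. As with Cas9, the groups lay far apart. The log2 fold change was 0.81 (SE 0.143, adjusted p = 3.06e-04). The call was lost in 1 of 16 alternatives, without HOTSCRAMBL CBE replicate 1, where the adjusted p was 0.0615, and the change ranged from 0.67 to 0.88.

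SNHG5, a host of box C/D snoRNAs of the SNORD50 family, had 36.7 and 48.6 CPM in AAVS1 CBE and 64.9 and 69.0 CPM in HOTSCRAMBL CBE. Within each of these groups the library labelled OCI-AML4 was the higher one. The log2 fold change was 0.67 (SE 0.196, adjusted p = 0.0289). It was lost in 9 of 16 alternatives: without TMM scaling, without the line term, in the fit to the 4 CBE libraries, and without any 1 library of AAVS1 KO, AAVS1 CBE or HOTSCRAMBL CBE. Over these the value was 0.50 to 0.82 and the adjusted p reached 0.483. With Cas9 the SNHG5 groups overlapped, with 33.4 and 46.7 CPM against 46.6 and 59.4 CPM, and the log2 fold change of 0.41 (SE 0.226) had an adjusted p of 0.328.

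The genes called with Cas9 alone had smaller values with the base editor. SNHG6 had 41.5 and 38.6 CPM in AAVS1 CBE and 64.9 and 51.6 CPM in HOTSCRAMBL CBE, a log2 fold change of 0.55 (SE 0.200, adjusted p = 0.0922, and 0.0092 under the DESeq2 Wald test). SNHG8 had 61.1 and 67.3 CPM against 79.8 and 86.5 CPM, a log2 fold change of 0.37 (SE 0.171, adjusted p = 0.212). In both genes the HOTSCRAMBL libraries lay above the controls without passing the test. SNHG16 had 36.3 and 29.1 CPM against 37.9 and 28.7 CPM, with overlapping groups and a log2 fold change of 0.03 (SE 0.244, adjusted p = 0.964) that turned to -0.11 without TMM scaling.

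**Figure D3:**
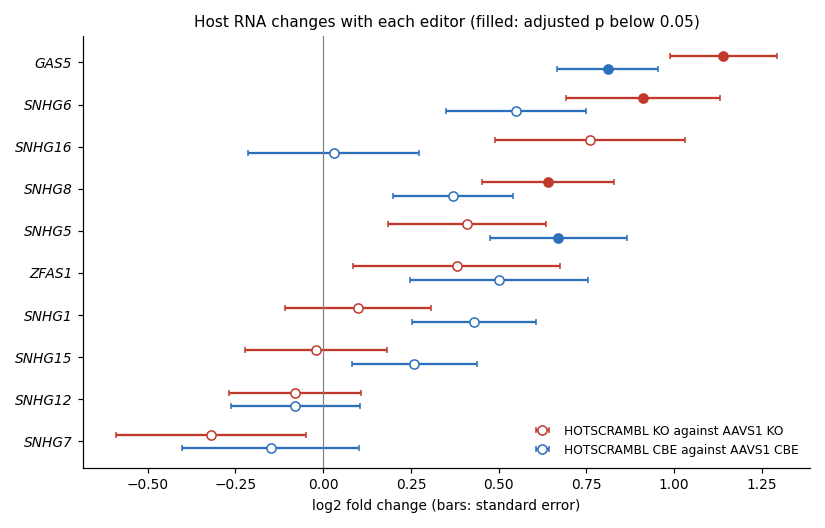
Log2 fold change of each host gene with Cas9 (red) and with the base editor (blue), HOTSCRAMBL against AAVS1; bars are standard errors and filled points have an adjusted p below 0.05. GAS5 is filled in both, at 1.14 and 0.81, and for SNHG16 the values lie farthest apart, at 0.76 and 0.03.

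Whether the HOTSCRAMBL effect differed between the editors was tested for each gene as the Cas9 change minus the base editor change. None of the 10 hosts passed in edgeR, 0 had an unadjusted p below 0.05, and 0 passed in DESeq2 or limma-voom, where 3.19% of all genes tested passed in edgeR. The difference was 0.73 (SE 0.365, adjusted p = 0.373) for SNHG16, 0.36 (SE 0.298) for SNHG6 and 0.33 (SE 0.210) for GAS5. For GAS5 an interval of 2 SE around that value, whose coverage was not computed, ran from -0.09 to 0.75. The data therefore do not show that GAS5 responded alike to both editors, nor that it responded differently. SNHG5 gave -0.26 (SE 0.299) and SNHG8 0.26 (SE 0.254).

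The HOTSCRAMBL groups compared directly gave 0 calls among the hosts in edgeR, with 1 at an unadjusted p below 0.05, against 8.47% of all genes tested called. That host was SNHG1, which carries a row of box C/D snoRNAs. It had 59.6 and 63.0 CPM in HOTSCRAMBL KO and 100.2 and 80.9 CPM in HOTSCRAMBL CBE, a log2 difference of -0.58 (SE 0.190, adjusted p = 0.0608). The groups did not overlap, and the adjusted p fell below the threshold under the DESeq2 Wald test (0.0176), the older edgeR quasi-likelihood fit (0.043) and without TMM scaling (0.048). The control groups, AAVS1 KO against AAVS1 CBE, gave 0 calls among the hosts and 0% among all genes tested in edgeR, with 0 hosts and 918 genes at an unadjusted p below 0.05. DESeq2 called 35 genes there and limma-voom 1, and no host was called by either.

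SNHG1, ZFAS1, SNHG15, SNHG12 and SNHG7 passed neither HOTSCRAMBL comparison. SNHG1 had 56.6 and 58.2 CPM in AAVS1 KO, just under the HOTSCRAMBL KO values above, with a log2 fold change of 0.10 (SE 0.208) that became -0.06 without TMM scaling. In AAVS1 CBE it had 60.7 and 75.5 CPM, and the base editor change was 0.43 (SE 0.176, adjusted p = 0.143). ZFAS1, a host of SNORD12 family snoRNAs, had 27.2 and 28.8 CPM in the Cas9 controls and 30.8 and 41.2 CPM after Cas9 targeting of HOTSCRAMBL. With the base editor it had 30.2 and 30.1 CPM in controls and 52.0 and 31.2 CPM in HOTSCRAMBL libraries. Its changes of 0.38 (SE 0.295) and 0.50 (SE 0.253) each rested on 1 library: without HOTSCRAMBL KO replicate 2 the first was -0.004, and without HOTSCRAMBL CBE replicate 1 the second was -0.03.

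SNHG15, host of the box H/ACA snoRNA SNORA9, had 54.6 and 60.5 CPM in AAVS1 KO and 58.4 and 54.9 CPM in HOTSCRAMBL KO, which overlapped. In AAVS1 CBE it had 60.8 and 60.6 CPM and in HOTSCRAMBL CBE 68.1 and 78.7 CPM, which did not. Its log2 fold changes were -0.02 (SE 0.203) and 0.26 (SE 0.177), and the first changed sign in DESeq2, at 0.00386.

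SNHG12, which carries several H/ACA snoRNAs besides SNORD99, had 80.8 and 83.2 CPM in the Cas9 controls and 89.1 and 67.1 CPM in HOTSCRAMBL KO. The base editor libraries had 75.9 and 53.0 CPM as controls and 64.2 and 58.4 CPM with HOTSCRAMBL edited. The groups overlapped within both editors. Its log2 fold change was -0.08 with Cas9 (SE 0.187) and with the base editor (SE 0.184), and leaving out single libraries turned either sign.

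SNHG7, a host of SNORA17A and SNORA17B, differed between the labelled lines and passed no editing comparison. It had 30.1, 34.6, 29.6 and 39.9 CPM in the libraries labelled MOLM13 and 80.0, 51.7, 66.5 and 40.6 CPM in those labelled OCI-AML4, in the order control and HOTSCRAMBL of Cas9, then control and HOTSCRAMBL of the base editor. Every library labelled OCI-AML4 lay above every library labelled MOLM13, narrowly so in HOTSCRAMBL CBE. The log2 difference, MOLM13 minus OCI-AML4, was -0.81 (SE 0.186, adjusted p = 0.0433), making SNHG7 1 of 10 hosts called between the labels where 0.495% of all genes tested were called and 0.258% were lower in MOLM13. The call was lost without any 1 library of AAVS1 KO, HOTSCRAMBL KO or AAVS1 CBE, with values from -1.09 to -0.61 and an adjusted p of up to 0.705. With the label as a term, SNHG7 in HOTSCRAMBL against AAVS1 libraries gave log2 fold changes of -0.32 (SE 0.270, adjusted p = 0.565) with Cas9 and -0.15 (SE 0.253, adjusted p = 0.805) with the base editor.

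Both snoRNAs counted in introns of SNHG12 and ZFAS1 passed the test with Cas9, where neither host did. They were the only 2 of the 25 snoRNA entries inside the hosts that could be tested. Of all genes tested, 8.76% passed in either direction and 4.51% rose. SNORD12C rose by 1.96 on the log2 scale and SNORD99 by 1.31. SNORD12C had 4.98 and 6.80 CPM in AAVS1 KO and 20.7 and 24.9 CPM in HOTSCRAMBL KO, from 127 and 170 counts against 406 and 557 counts. Its HOTSCRAMBL KO libraries stood apart from all 6 others, since it had 8.34 and 7.95 CPM in AAVS1 CBE and 8.45 and 7.17 CPM in HOTSCRAMBL CBE. The Cas9 change had SE 0.428 and adjusted p = 0.00289, and the base editor change was -0.04 (SE 0.445, adjusted p = 0.978). The difference of 2.00 between the editors (SE 0.629) had an adjusted p of 0.0902, whereas HOTSCRAMBL KO against HOTSCRAMBL CBE gave 1.52 (SE 0.383, adjusted p = 0.0111).

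SNORD99 had 9.96 and 13.7 CPM in AAVS1 KO and 26.1 and 32.5 CPM in HOTSCRAMBL KO, a log2 fold change of 1.31 (SE 0.349, adjusted p = 0.0156). With the base editor it had 9.66 and 16.2 CPM against 19.0 and 18.8 CPM, a change of 0.59 (SE 0.335, adjusted p = 0.343). HOTSCRAMBL libraries lay above their controls in both editors, and the difference between the editors, 0.72 (SE 0.492, adjusted p = 0.558), did not pass. The Cas9 call of SNORD99 was lost in the fit to the 4 KO libraries and without any 1 of them, and that of SNORD12C in the same fit and without AAVS1 KO replicate 1, AAVS1 KO replicate 2 or HOTSCRAMBL KO replicate 2, with adjusted p-values of up to 0.208 and 0.124. Changes ranged from 1.15 to 1.41 for SNORD99 and from 1.78 to 2.19 for SNORD12C. A read in these entries may come from a mature snoRNA or from the unspliced intron around it, and the 2 were not separated. The difference between the change of a snoRNA and that of its host was not tested.

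**Figure D4:**
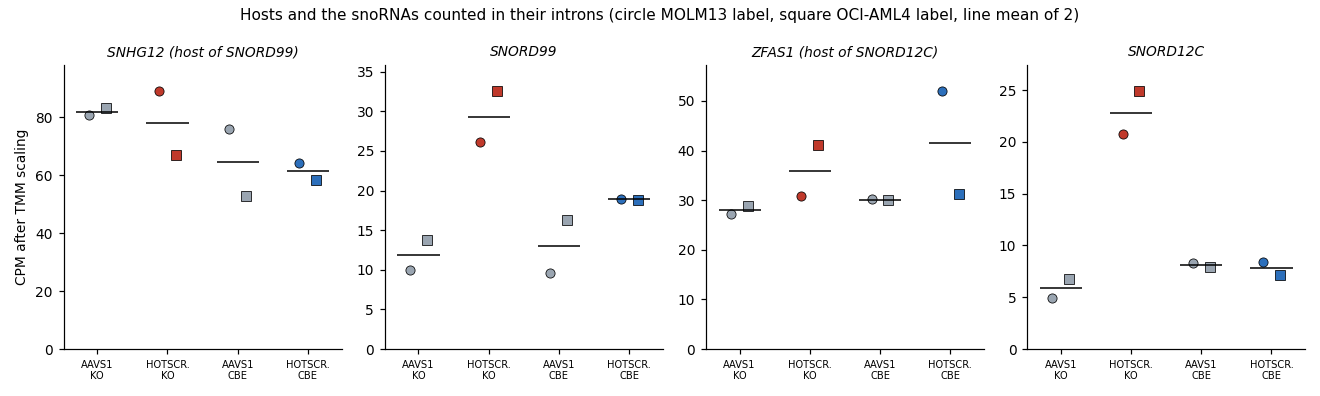
SNHG12 and ZFAS1 beside SNORD99 and SNORD12C, the snoRNAs counted in their introns, in CPM after TMM scaling for each library on axes that start at 0 (circles MOLM13 label, squares OCI-AML4 label, lines the mean of 2). SNORD12C reaches 20.7 and 24.9 in HOTSCRAMBL KO and stays between 4.98 and 8.45 elsewhere.

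Several hosts overlap genes on the other strand, and counts without strand make these hosts uncertain. The share of exon length that also belongs to exons of an opposite-strand gene was 58.9% for SNHG6 (MCMDC2), 37.6% for SNHG8 (PRSS12), 36.4% for ZFAS1, 30.3% for SNHG7 (DIPK1B), 28.5% for SNHG16 (ENSG00000284526) and 7.75% for GAS5. Reads in shared stretches were counted for neither gene, and a read from the partner outside its annotated exons would be counted for the host. MCMDC2, which encodes a protein related to the MCM helicase subunits, had 0.314 and 0.320 CPM in AAVS1 KO and 3.27 and 4.38 CPM in HOTSCRAMBL KO, a log2 fold change of 3.58 (SE 1.17, adjusted p = 0.0546). PRSS12 changed by 0.30 (SE 0.241, adjusted p = 0.539) with Cas9, and ZNFX1, which shares exon bases with ZFAS1, by 0.03 (SE 0.181). None of the partners that share exon bases with a host passed the test with either editor.

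Summed over the 10 hosts, the level was 485.5 and 557.4 CPM in the Cas9 controls and 529.0 and 566.8 CPM in the base editor controls. It was 697.3 and 723.6 CPM in HOTSCRAMBL KO and 747.0 and 690.0 CPM in HOTSCRAMBL CBE. All 4 HOTSCRAMBL sums lay above all 4 AAVS1 sums. GAS5 made up 14.0% to 18.3% of the sum in AAVS1 libraries and 23.4% to 27.8% in HOTSCRAMBL libraries. Without GAS5 the sums were 396.6 to 479.4 CPM in AAVS1 libraries and 522.3 to 571.9 CPM in HOTSCRAMBL libraries. They did not overlap on this TMM scale, whose factors were 1.04 to 1.06 in AAVS1 libraries and 0.929 to 0.964 in HOTSCRAMBL libraries. In counts divided by library totals alone, the sums without GAS5 overlapped. The share of all 10 hosts in those counts stayed apart, at 0.0504% to 0.0601% against 0.0665% to 0.0710%.

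The hosts did not vary as 1 block. Over 45 pairs of hosts, Pearson correlations of log2 CPM across the 8 libraries had a median of 0.33, and 30 pairs were above 0. GAS5, SNHG6 and SNHG8 formed the most similar trio, at 0.95 for GAS5 with SNHG6, 0.91 for GAS5 with SNHG8 and 0.90 for SNHG6 with SNHG8. SNHG1 and SNHG12 had the lowest value, -0.72. These correlations describe 8 libraries that fall into HOTSCRAMBL and AAVS1 groups, so genes that differ between the groups in the same direction correlate through that difference.

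Among 12028 genes of above-median level, those whose pattern over the 8 libraries was most like GAS5 were ABHD2, a hydrolase gene (r = 0.993), PCBP1, which encodes a poly(C)-binding protein (0.992), TM9SF2, a membrane protein gene (0.992), RPL30, a ribosomal protein gene (0.991), and ENSG00000228061 (0.986). Their log2 fold changes were 1.04 to 1.73 with Cas9 and 0.82 to 1.25 with the base editor, next to 1.14 and 0.81 for GAS5. Nearest to SNHG12, which passed no test, were ENSG00000243008 (0.98), TRMT44 (0.953), PRPF18 (0.946), RAB28 (0.943) and TTC31 (0.942). Their changes lay between -0.36 and 0.15.

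Genes related to the hosts by role were read from lists, also chosen with earlier results of these data known. Their shares of calls are therefore descriptive. Of 17 other non-coding snoRNA hosts tested, 1 rose and 1 fell with Cas9 and 3 rose with the base editor, with medians of 0.18 and 0.12. SNHG29 rose with both editors, as GAS5 did. It had 143.9 and 140.5 CPM in the Cas9 controls and 154.1 and 123.5 CPM in the base editor controls, against 269.8 and 295.2 CPM with HOTSCRAMBL cut and 282.9 and 240.6 CPM with HOTSCRAMBL base edited. It rose by 1.00 (SE 0.133, adjusted p = 5.83e-06) with Cas9 and 0.92 (SE 0.128, adjusted p = 1.39e-05) with the base editor, and kept both calls in all 16 alternatives. SNHG10 fell with Cas9, from 30.6 and 20.2 CPM to 14.2 and 8.27 CPM, a log2 fold change of -1.19 (SE 0.377, adjusted p = 0.0479) that lost its call in 12 of 16 alternatives, with an adjusted p of up to 0.485. With the base editor EPB41L4A-AS1 rose by 1.18 (SE 0.312, adjusted p = 0.0146), from 9.36 and 19.9 CPM to 33.9 and 29.6 CPM. Its controls lay far apart, and the change was 0.65, without a call, when AAVS1 CBE replicate 1 was left out and 1.80 when AAVS1 CBE replicate 2 was. It was also without a call, at 0.86, when HOTSCRAMBL CBE replicate 1 was left out. SNHG3 rose by 0.45 with the base editor (SE 0.124, adjusted p = 0.0201), a call lost in 9 of 16 alternatives. SNHG3 had 161.4 to 176.4 CPM in the 4 AAVS1 libraries, 146.4 and 115.0 CPM with HOTSCRAMBL cut and 237.3 and 216.3 CPM with HOTSCRAMBL base edited, so its HOTSCRAMBL libraries lay below their controls with Cas9 and above them with the base editor.

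In the main fit, most protein-coding snoRNA hosts were called. Of 30 tested, 16 rose and 3 fell with Cas9 and 19 rose and 1 fell with the base editor, with medians of 0.69 and 0.64. Of all genes tested, 8.76% and 8.83% were called in the same fit. The list is rich in translation genes. EEF2, translation elongation factor 2, rose by 1.40 (SE 0.0743) with Cas9 and 1.03 (SE 0.0735) with the base editor, from 1606 to 2149 CPM in AAVS1 libraries to 3586 to 5576 CPM in HOTSCRAMBL libraries. RPL3 rose by 1.36 and 1.31, RPL13A by 1.21 and 1.08 and RPS3 by 1.57 and 1.62. RACK1, a ribosome-associated scaffold protein gene, rose by 1.40 and 1.47, with 198 to 226 CPM in AAVS1 libraries and 532 to 604 CPM in HOTSCRAMBL libraries. Adjusted p-values of these 5 genes were at most 3.81e-10. Reads with several placements stayed uncounted for every gene. Ribosomal protein genes have near-identical processed copies, so their levels are uncertain. How far the other genes named here and below lost reads in this way was not measured. NOP56, a core protein of box C/D particles and itself a host, fell by 0.55 (SE 0.108, adjusted p = 0.00102) with Cas9 and by 0.36 (SE 0.104, adjusted p = 0.0278) with the base editor.

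TOP mRNAs other than those of ribosomal proteins had the largest share of calls among the lists. Of 19 tested, 14 rose and 1 fell with Cas9 and 17 rose and 1 fell with the base editor, with medians of 0.91 and 0.93. EEF1A1, an elongation factor, rose by 1.46 (SE 0.0838) and 1.30 (SE 0.0828), and TPT1, translationally controlled tumour protein, by 1.63 (SE 0.120) and 1.02 (SE 0.117). HNRNPA1, a splicing regulator, rose by 0.34 (SE 0.108, adjusted p = 0.0483) and 0.95 (SE 0.104, adjusted p = 3.58e-07). EEF2, RACK1 and EEF1B2 stand on this list and on that of coding hosts. Of the 8 hosts with an annotated TOP start of at least 5 bases, 4 passed with at least 1 editor (GAS5, SNHG5, SNHG6 and SNHG8) and SNHG1, SNHG12, SNHG16 and ZFAS1 with neither. Of the 2 without one, SNHG7 and SNHG15, 0 passed. At the single RefSeq start, a tract was present for SNHG12, SNHG5 and ZFAS1, of which SNHG5 alone passed. Of all genes tested, 8.76% passed with Cas9 and 8.83% with the base editor. The share that passed with at least 1 editor was not computed. A relation between tract and call was not tested.

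**Figure D5:**
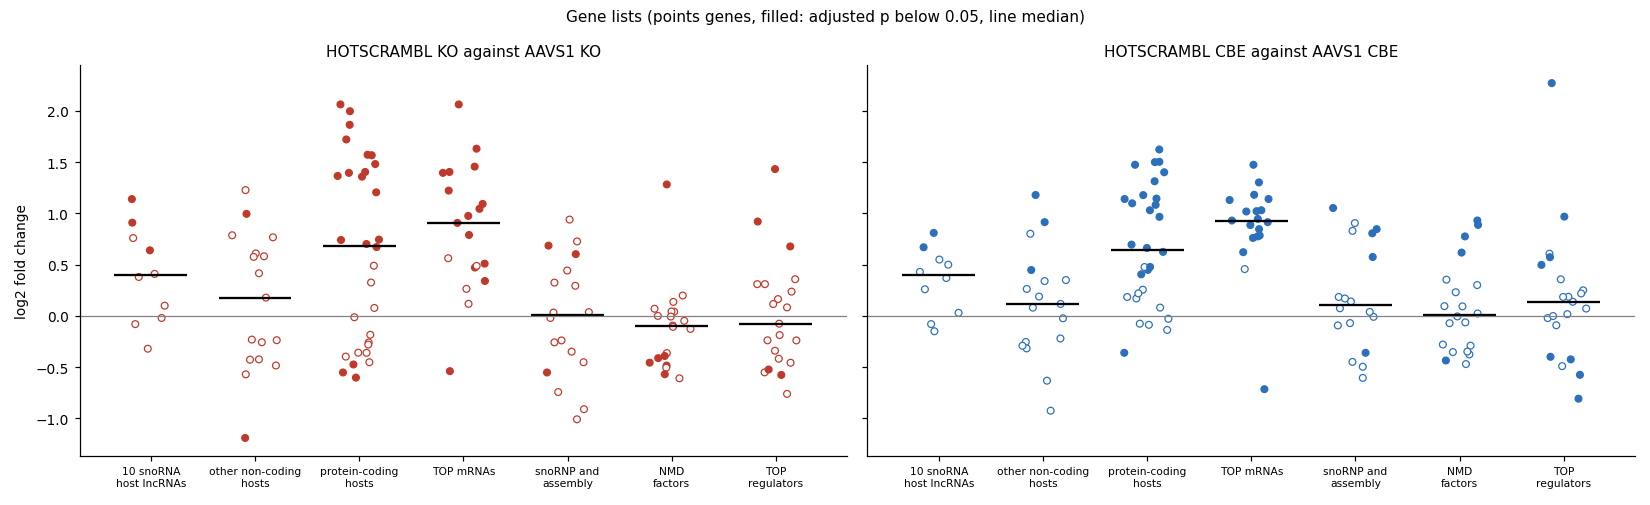
Log2 fold changes of the 10 hosts and of 6 gene lists with Cas9 (left) and with the base editor (right), HOTSCRAMBL against AAVS1; each point is a gene, filled where the adjusted p is below 0.05, and the line is the median. The medians of the hosts, 0.39 and 0.40, lie below those of coding hosts (0.69 and 0.64) and TOP mRNAs (0.91 and 0.93) and above those of the other lists.

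Among proteins that build snoRNA particles, 3 were called with Cas9 and 5 with the base editor, where 8.76% and 8.83% of all genes tested were. Among genes in the hosts' range of mean level the shares were 19% and 22.3%. Of 18 tested, 2 rose and 1 fell with Cas9 and 4 rose and 1 fell with the base editor, with medians of 0.01 and 0.11. FBL, the methyltransferase of box C/D particles, had 83.3 and 87.5 CPM in AAVS1 KO and 90.3 and 174 CPM in HOTSCRAMBL KO, a log2 fold change of 0.60 (SE 0.186, adjusted p = 0.0413). That change rested on HOTSCRAMBL KO replicate 2: without it the value was 0.25, and over all alternatives the call was lost in 10 of 16. With the base editor FBL rose by 1.05 (SE 0.178, adjusted p = 1.81e-04), a call lost in 2 of 16. ZNHIT6, a factor in the assembly of these particles, rose by 0.69 and 0.81 and kept both calls. NOP58 and RUVBL1 rose with the base editor, by 0.57 and 0.85, and had 0.03 and 0.33 with Cas9 without passing. Their calls were lost in 6 and 5 of 16 alternatives, and the Cas9 call of NOP56 in 4. The gene that fell was NOP56.

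Factors of nonsense-mediated decay, the pathway that removes spliced GAS5, were called in 6 of 20 with Cas9, of which 5 fell, and in 5 of 20 with the base editor, of which 4 rose. The medians were -0.10 and 0.01. SMG1, the kinase that phosphorylates UPF1, fell by 0.41 (SE 0.0956, adjusted p = 0.00515) and by 0.43 (SE 0.0938, adjusted p = 0.00257). UPF2 fell by 0.46 with Cas9 (adjusted p = 0.00346) and had -0.06 with the base editor. EIF4A3, a subunit of the exon junction complex, rose by 1.28 (SE 0.178, adjusted p = 1.08e-05) with Cas9 and had -0.47 (SE 0.198, adjusted p = 0.165) with the base editor. DCP2 (0.89) and PNRC2 (0.93) rose with the base editor. EIF4A3 kept its Cas9 call in all 16 alternatives, while single libraries left out ended the calls of SMG1, UPF2, DCP2 and PNRC2.

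Regulators of TOP translation were called in 5 of 21 with Cas9 (3 rose, 2 fell) and in 8 of 21 with the base editor (4 rose, 4 fell), with medians of -0.08 and 0.14. DDIT4, an inhibitor of mTOR complex signalling, had 977 to 1400 CPM in the AAVS1 libraries, 2876 and 3473 CPM in HOTSCRAMBL KO and 5108 and 6387 CPM in HOTSCRAMBL CBE. It rose by 1.43 (SE 0.0770, adjusted p = 3.89e-13) and by 2.27 (SE 0.0781, adjusted p = 1.58e-16). TSC2, also an inhibitor of mTOR signalling, fell by 0.58 and by 0.81. RPS6KB1, a kinase downstream of mTOR, rose by 0.92 with Cas9, EIF4EBP1, a translation repressor, by 0.68 and 0.50, and CNBP, a nucleic acid-binding protein gene, by 0.97 with the base editor. DDIT4 and RPS6KB1 kept these calls in all 16 alternatives, and those of TSC2, EIF4EBP1 and CNBP were each lost in at least 1. These lists were read by counts and medians alone, and the share of all genes tested that passed was 8.76% with Cas9 and 8.83% with the base editor. Among genes in the hosts' range of mean level it was 19% and 22.3%. No share was computed for genes at the levels of each list.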

How the data were processed

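ChIRP libraries of 2 labelled leukaemia lines were analysed from a table of raw counts per gene that the authors deposited. Per the file headers, featureCounts 2.0.6 made the counts from GRCh38 alignments with the Ensembl 112 annotation, without strand. Reads at several positions or over several genes were not counted, and the mates of a pair were counted separately. The aligner and any removal of duplicates are not given in the sources used here. Groups and lines came from the titles. Nothing says that libraries came from separate cultures beyond the 2 line labels, so p-values measure the spread between these libraries, which may be technical.

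Tests across genes used R 4.3.3 and edgeR 4.0.16 (TMM scaling, filterByExpr at a minimum count of 10, robust quasi-likelihood fit, terms for group and labelled line, 3 residual degrees of freedom, Benjamini-Hochberg threshold 0.05 over 24057 genes). All 8 libraries entered 1 fit. The common biological coefficient of variation was 0.708 over all genes and 0.131 to 0.204 for the hosts. Same-numbered libraries share a line label in their titles, and their deviations from group means correlated at 0.0085 to 0.0245. The median correlation of log2 CPM was 0.901 within groups, 0.878 between groups for the same line label and 0.875 for different labels. The libraries of a group differed beyond sampling noise (chi-square per degree of freedom 38.5 to 46.4), so none was treated as a repeat. The table had 0 columns of other samples, 2 broken records (TTN and ANK2) were rejoined, and 62541 identifiers (99.05%) matched a symbol.

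The 10 members and all lists were chosen with earlier results of these data known. Named were every member, the tested snoRNA with the most counts in each member, up to 4 called genes with the smallest p per list and editor, and the 5 genes most like GAS5 and SNHG12. Some genes that this rule names are not reported here. Starts and snoRNA sequences came from GENCODE v29, the RefSeq starts from RefSeq (GRCh38.p14). Alternatives were DESeq2 1.42.0 size factors and Wald test, limma-voom (limma 3.58.1), no TMM, no low-count filter, no line term, only the groups compared, and each library left out. The older edgeR quasi-likelihood fit, and all alternatives for lists and snoRNAs, were added after seeing the data. The scripts were tested on simulated data.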

Additional observations from a re-analysis of the deposited data

Results flagged for a closer look

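In the test of the difference between the Cas9 and the base editor change, 0 of the 10 hosts and neither SNORD99 nor SNORD12C passed. The genes listed here are related genes whose HOTSCRAMBL effect with Cas9 differed from that with the base editor in the edgeR test of that difference. Among the hosts of snoRNAs, SNHG3 gave a difference of -0.87 on the log2 scale (SE 0.185, adjusted p = 0.00573). EIF4A3, of the exon junction complex, gave 1.75 (SE 0.266, adjusted p = 1.69e-04). Among regulators of TOP translation, DDIT4 gave -0.84 (SE 0.107, adjusted p = 1.35e-05) and RPS6KB1 gave 0.70 (SE 0.152, adjusted p = 0.00664). Among TOP mRNAs, TPT1 gave 0.61 (SE 0.167, adjusted p = 0.0398) and HNRNPA1 gave -0.61 (SE 0.150, adjusted p = 0.0216). A negative value means that the change with the base editor was the higher one.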

How the results depend on the processing

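Of 1650 recomputed log2 fold changes, 1446 kept their direction and their side of the threshold, 145 lost a call, 5 gained one and 54 changed sign, the last all among values without a call. Counts of genes depended on the test. The DESeq2 Wald test called 4150 genes with Cas9, 3351 with the base editor, 2205 for their difference, 4032 between the HOTSCRAMBL groups, 35 between the controls and 715 between the line labels. limma-voom called 1 gene between the controls and 250 between the line labels, and the older edgeR quasi-likelihood fit 193 between the line labels. Fits to the groups compared alone called 780 genes with Cas9, 677 with the base editor and 569 between the HOTSCRAMBL groups, from fewer libraries. Without the replicate block (the labelled line), 503 genes were called for the difference of the editors and 1 host with the base editor, SNHG8 lost its call with Cas9, and no other count of all genes or hosts moved by over 1.5 times. Hosts called fell to 1 with Cas9 and 1 with the base editor in the fits to the groups alone and to 1 with the base editor without TMM scaling. Between the HOTSCRAMBL groups 1 host was called in the older fit, without TMM scaling and in DESeq2. Without TMM scaling the median change of all genes moved to -0.17 with Cas9 and -0.153 with the base editor. Signs turned without TMM scaling for SNHG1 with Cas9 (-0.0629), SNHG16 with the base editor (-0.107) and SNHG7 between the HOTSCRAMBL groups (-0.00934), in DESeq2 for SNHG15 with Cas9 (0.00386), and for the editor difference of SNHG12 with DESeq2 size factors (0.0312), DESeq2 (0.00148) and limma-voom (0.0135). The cause was not tested.

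Leaving out 1 library at a time left 677 to 1674 genes called with Cas9, 586 to 1885 with the base editor, 226 to 372 for their difference, 633 to 1519 between the HOTSCRAMBL groups and 26 to 65 between the line labels. Hosts called were 1 to 2, 0 to 2, and, between the line labels, 0 to 1. Signs turned in these ranges with Cas9 for SNHG7 (-0.61 to 0.20), SNHG12 (-0.27 to 0.13), SNHG15 (-0.13 to 0.076) and ZFAS1 (-0.0038 to 0.69). With the base editor they turned for SNHG12 (-0.24 to 0.13), SNHG7 (-0.68 to 0.39), SNHG16 (-0.094 to 0.12), ZFAS1 (-0.032 to 0.86) and SNORD12C (-0.29 to 0.14). For the editor difference they turned for ZFAS1 (-0.50 to 0.39), SNHG7 (-0.71 to 0.36) and SNHG12 (-0.20 to 0.20). Between the HOTSCRAMBL groups they turned for ZFAS1 (-0.61 to 0.28), SNHG7 (-0.53 to 0.54), SNHG8 (-0.092 to 0.24) and GAS5 (-0.087 to 0.28). Between the controls they turned for ZFAS1 (-0.23 to 0.023), SNHG5 (-0.21 to 0.010) and SNHG7 (-0.31 to 0.50). Between the line labels they turned for GAS5 (-0.071 to 0.083), SNHG1 (-0.16 to 0.088), SNHG8 (-0.11 to 0.0040) and ZFAS1 (-0.16 to 0.27). Over all alternatives the coding hosts called numbered 12 to 24 with Cas9 and 13 to 22 with the base editor, the TOP mRNAs 10 to 17 and 14 to 18, the other non-coding hosts 1 to 6 and 1 to 5, the particle proteins 1 to 6 and 1 to 6, the decay factors 1 to 7 and 0 to 9 and the TOP regulators 2 to 8 and 1 to 10. A group that lost a library had 1 left, which was assumed to vary like the others. The 2 libraries per group and 3 residual degrees of freedom limit the precision of every value.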

Other observations

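The remaining snoRNA entries with any count were too low to be tested. SNORD1B, in an intron of SNHG16, had 0 and 0 counts in the Cas9 controls, 12 and 4 with HOTSCRAMBL cut, 4 and 10 in the base editor controls and 4 and 8 with HOTSCRAMBL base edited. SNORD12B, of which 88 of 91 bases lie in an exon block of ZFAS1, had 11 counts in HOTSCRAMBL CBE replicate 1 and at most 2 in any other library. ZBTB37, a gene on the other strand whose span overlaps that of GAS5 without sharing exon bases, had 78.8 and 81.0 CPM in AAVS1 KO and 134.1 and 99.9 CPM in HOTSCRAMBL KO, which is 0.54 on the log2 scale (SE 0.169, adjusted p = 0.0445 in edgeR).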
